A study of Homo sapiens with 4 samples.

Results

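The 10 genes described here encode the proteins that fold, hydroxylate and crosslink collagen, and they were chosen by gene name, with their FPKM in both cell lines already known, out of the 57815 genes of the deposited table. They are the chaperones FKBP10 and SERPINH1, the prolyl 4-hydroxylase subunits P4HA1, P4HA2 and P4HA3, the lysyl hydroxylases PLOD1, PLOD2 and PLOD3, and the lysyl oxidases LOX and LOXL2. Because the choice was made on these same values, the levels and ratios below are a description and no p-value is given. RNA-Seq was performed on 2 untreated human breast cancer cell lines, with 2 libraries each and 4 in all. MDA-MB-231 is a triple-negative line, and LM2-4175 is a line of the same origin with strong metastasis to the lung, so each group is a single cultured line without other cell types or host tissue. The table gives 1 FPKM (fragments for each kilobase of a transcript, scaled to library size) per gene and cell line, with a lower and an upper bound from the authors' software, and no value for a single library. The differences below therefore have no replicate check, and they compare these pooled libraries of 2 lines.

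Collagen chains are made in the endoplasmic reticulum, where prolyl 4-hydroxylases modify the prolines that keep the triple helix stable at body temperature. Lysyl hydroxylases modify lysines of the helix and of the short telopeptides at the chain ends, and chaperones hold the chains while the helix forms. Outside the cell, lysyl oxidases convert lysines and hydroxylysines into aldehydes that crosslink the fibrils, and a stiffer, more crosslinked matrix is a known trait of invasive breast tumours.

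The cell lines differed most in FKBP10, which was nearly absent in MDA-MB-231 and abundant in LM2-4175, while SERPINH1, PLOD3 and LOX were lower in LM2-4175. A gene was called where FPKM + 1 differed by at least 1.5-fold and the authors' bounds of the cell lines did not overlap. P4HA3 had a mean under 0.5 FPKM and was left out of the calls, so 9 of the 10 genes were examined. Of these 9, 1 was called higher and 3 were called lower in LM2-4175, and 5 were not called. Among all 13911 genes with a mean of at least 0.5 FPKM, 4.67% were called higher and 4.61% lower, 9.27% together. The fold alone, without the bounds, was passed by 6 of the 9 genes and by 22.1% of all genes. Since the genes were picked with these values in view, nothing is read from the larger share. Their median log2 ratio was -0.27, against -0.04 for all genes. From the highest FPKM to the lowest, the order in MDA-MB-231 was LOXL2, SERPINH1, PLOD1, PLOD3, PLOD2, LOX, P4HA1, P4HA2, P4HA3 and FKBP10. In LM2-4175 it was LOXL2, PLOD2, SERPINH1, FKBP10, PLOD1, PLOD3, P4HA1, P4HA2, LOX and P4HA3. The bounds of neighbours in these orders overlap, except between P4HA2 and P4HA3 in MDA-MB-231, and in LM2-4175 between LOXL2 and PLOD2 and between LOX and P4HA3.

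**Figure D1:**
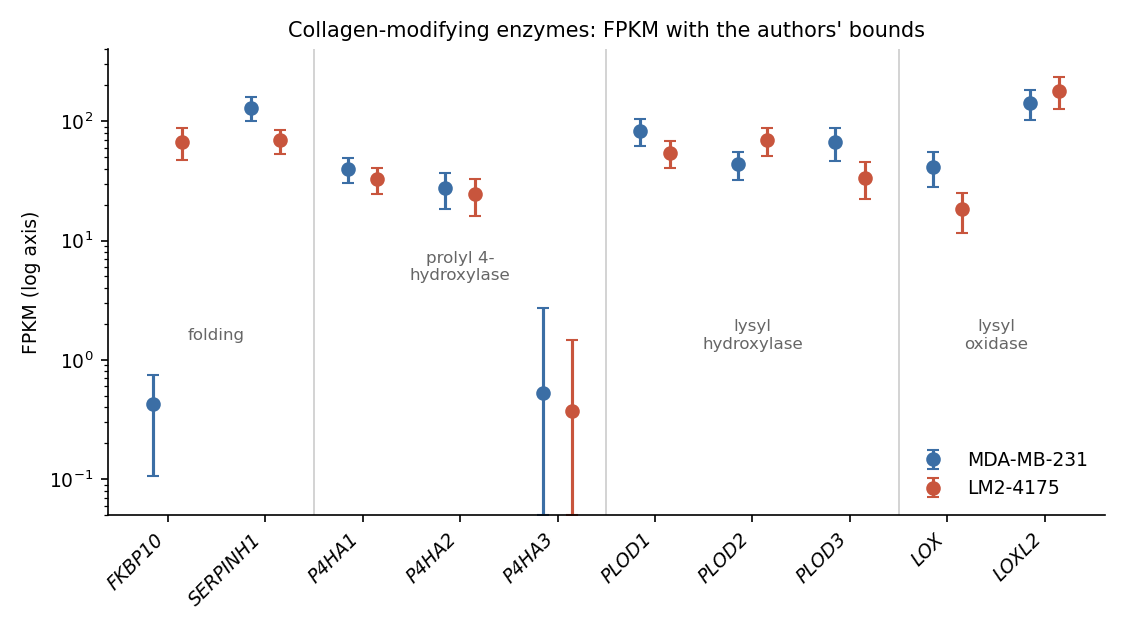
FPKM of the 10 genes on a log axis, with 1 point per cell line and bars for the authors' lower and upper bounds; bars that reach 0 are cut at the axis. FKBP10 goes from 0.425 to 67.0 FPKM, and P4HA3 lies under 1 FPKM in both cell lines.

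FPKM over all genes added up to 632944 for MDA-MB-231 and to 598147 for LM2-4175, a log2 ratio of -0.08. The table holds no read counts, so the number of reads behind a value is unknown, and only the bounds show how precise it is. The study does report the aligned read pairs of each library, and its smallest library was 1 of MDA-MB-231. Apart from FKBP10 and P4HA3, the upper bounds of the genes lay 22.8% to 33.5% above the FPKM in MDA-MB-231, and in LM2-4175 22.8% to 36.9%. Of 4 genes listed for breast cancer lines, VIM (1355 FPKM in MDA-MB-231 and 1768 FPKM in LM2-4175), CD44 (469.7 and 355 FPKM) and EGFR mark the basal or mesenchymal type and were not called. The other, KRT18, is a keratin gene of epithelial cells and was called lower, from 448.5 to 181.1 FPKM. Of 6 luminal or epithelial markers, the hormone receptor genes ESR1 and PGR stayed under 0.04 FPKM in both lines, EPCAM was called lower, from 12.3 to 4.93 FPKM, and 3 were not called. Of 7 fibroblast markers, 3 were under the filter on low values, COL1A1 was called higher and COL1A2, PDGFRB (9.44 to 1.91 FPKM) and LUM (1.34 to 0.178 FPKM) were called lower. Only 1 of 5 white blood cell markers passed that filter, CD14 at 1.17 and 1.75 FPKM, and none of the hemoglobin or endothelial genes did. Of the markers past the filter, 25% were called in the breast cancer line list and 25% in the luminal or epithelial list. All fibroblast markers past it were called (100%), against 9.27% of all genes. COL1A2 and LUM passed the filter only through their values in MDA-MB-231. What part the differences in these markers have in the values of the 10 genes was not tested.

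Among the chaperones, FKBP10 (ENSG00000141756, chromosome 17 of GRCh37, 39968932 to 39979465, plus strand) encodes a prolyl isomerase of the endoplasmic reticulum that binds procollagen. In people, loss of FKBP10 or of PLOD2 causes Bruck syndrome, a disease of brittle bones and joint contractures. In MDA-MB-231, FKBP10 was at 0.425 FPKM, with bounds of 0.108 to 0.743 FPKM. In LM2-4175 it was at 67.0 FPKM, with bounds of 47.2 to 86.9 FPKM. The low value lies above only 2.57% of the genes examined, and the high value above 89.2% of them. FKBP10 passed the filter on the mean, 0.5 FPKM, only through its value in LM2-4175. Genes low in both lines were left out, so these shares and the rank below hold only among the genes examined. The ratio of FPKM was 158, and the bounds allow any ratio from 63.5 to 808. On the log2(FPKM + 1) scale, which understates the change of a low gene, the ratio was 5.58, the 10th highest of the 13911 genes. The annotation places no other gene's exon on those of FKBP10.

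SERPINH1 (ENSG00000149257, chromosome 11, 75273101 to 75283828, plus strand) encodes HSP47, the chaperone that recognises the collagen triple helix. It went the other way, at 129.7 FPKM in MDA-MB-231 (bounds 100.2 to 159) against 68.9 FPKM in LM2-4175 (bounds 53.2 to 84.6). The FPKM ratio was 0.531 (0.334 to 0.844 within the bounds) and the log2 ratio -0.90, and the gene was called lower. With a threshold of 2-fold in place of 1.5-fold it was not called. In MDA-MB-231 the FPKM of SERPINH1 was 305 times that of FKBP10 (135 to 1481 within the bounds). In LM2-4175 both chaperones were at nearly the same level, with a ratio of 1.03 (0.612 to 1.79), and these ranges are far apart.

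**Figure D2:**
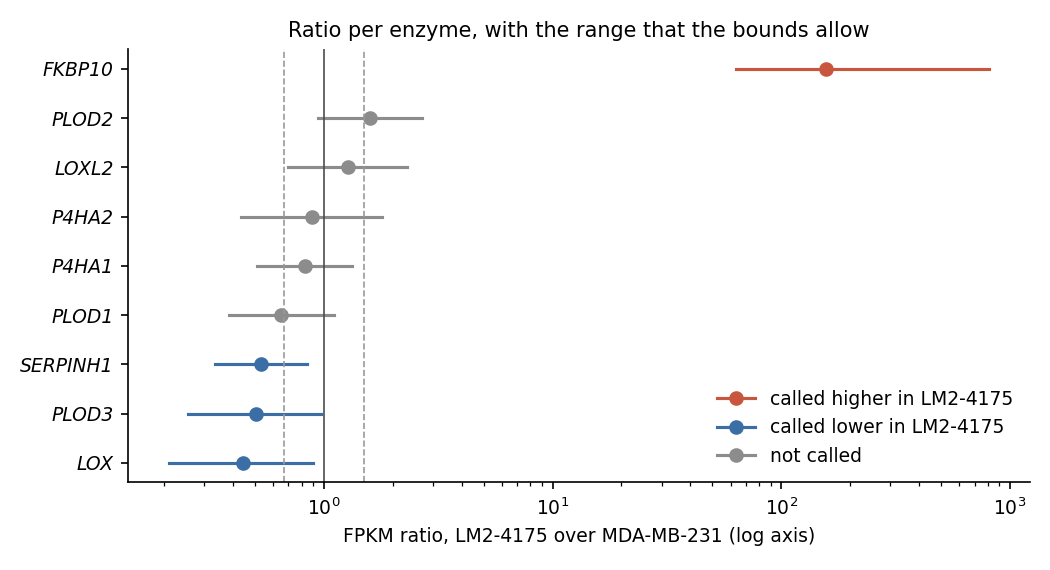
Ratio of FPKM in LM2-4175 over MDA-MB-231 for the 9 genes examined, on a log axis, with lines for the range that the authors' bounds allow, a solid line at equality and dashed lines at 1.5-fold either way. FKBP10 stands at 158, and the other 8 genes lie between 0.443 (LOX) and 1.59 (PLOD2).

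P4HA1 and P4HA2 were not called, and P4HA3 was barely expressed. The enzyme is a tetramer of catalytic alpha subunits, which P4HA1, P4HA2 and P4HA3 encode, and of beta subunits encoded by P4HB. P4HA1 (chromosome 10, 74766975 to 74856732, minus strand) stood at 39.5 FPKM (30.3 to 48.7) in MDA-MB-231 against 32.5 FPKM (24.7 to 40.4) in LM2-4175, which is a log2 ratio of -0.27. For P4HA2 (chromosome 5, 131525840 to 131631008, minus strand) the values were 27.5 FPKM (18.3 to 36.7) and then 24.4 FPKM (16.0 to 32.8), and the log2 ratio was -0.16. The bounds allow FPKM ratios of 0.507 to 1.33 for P4HA1 and of 0.436 to 1.80 for P4HA2, so a change of 1.5-fold is not shown to be absent. P4HA3 (chromosome 11, 73946846 to 74022685, minus strand) reached 0.532 FPKM in the former line, 0.375 FPKM in the latter, and its lower bound was 0 in both. Of the summed FPKM of the alpha subunits, P4HA1 held 58.5% in MDA-MB-231 and 56.7% in LM2-4175. P4HB, whose protein is also a free disulfide isomerase, had 424.7 and 374.9 FPKM, 10.8 and 11.5 times the FPKM of P4HA1.

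The lysyl hydroxylases stood in a different order of FPKM in each cell line, and 1 of the 3 was called, against 9.27% of all genes. PLOD1 encodes the enzyme that mainly modifies helical lysines, PLOD2 the one that modifies telopeptide lysines, and PLOD3 one that can also attach sugars to hydroxylysine. PLOD3 (chromosome 7, 100849258 to 100861701, minus strand) was called lower. MDA-MB-231 expressed it at 66.7 FPKM (46.5 to 87.0), LM2-4175 at 33.7 FPKM (22.1 to 45.2), and the log2 ratio was -0.97. Its bounds were only 1.24 FPKM apart, and the call was lost when both lines were scaled to the same sum of FPKM (log2 ratio -0.89) or when the median ratio of all genes was set to 0 (-0.92). PLOD1 (chromosome 1, 11994262 to 12035595, plus strand) was at 83.2 FPKM (61.8 to 104.7) in MDA-MB-231 against 54.3 FPKM (40.4 to 68.1), at a log2 ratio of -0.61. PLOD2 (chromosome 3, 145752926 to 145881512, minus strand) was the one with more FPKM in LM2-4175, at 69.1 (51.4 to 86.9) against 43.4 (32.2 to 54.7) in MDA-MB-231, at a log2 ratio of 0.66. PLOD1 and PLOD2 were both past 1.5-fold with overlapping bounds, so they were not called.

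In MDA-MB-231 the order of the FPKM was PLOD1, PLOD3 and PLOD2, and in LM2-4175 it was PLOD2, PLOD1 and PLOD3. Neighbours in each order have overlapping bounds and are not set apart, but the first and the last are, PLOD1 from PLOD2 in MDA-MB-231 and PLOD2 from PLOD3 in LM2-4175. PLOD2 held 22.5% of the summed FPKM of the lysyl hydroxylases in MDA-MB-231 (14.4% to 33.6% within the bounds) and 44.0% in LM2-4175 (31.2% to 58.1%). These ranges overlap slightly. PLOD3 held 34.5% and 21.4%, also with overlapping ranges. The FPKM of PLOD2 was 0.651 times that of PLOD3 in MDA-MB-231 (0.370 to 1.18) against 2.05 times in LM2-4175 (1.14 to 3.93), with ranges that overlap slightly. Such a ratio within a cell line is not changed by a scaling factor common to the whole line. How the libraries of a line were scaled to each other before pooling is not known.

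**Figure D3:**
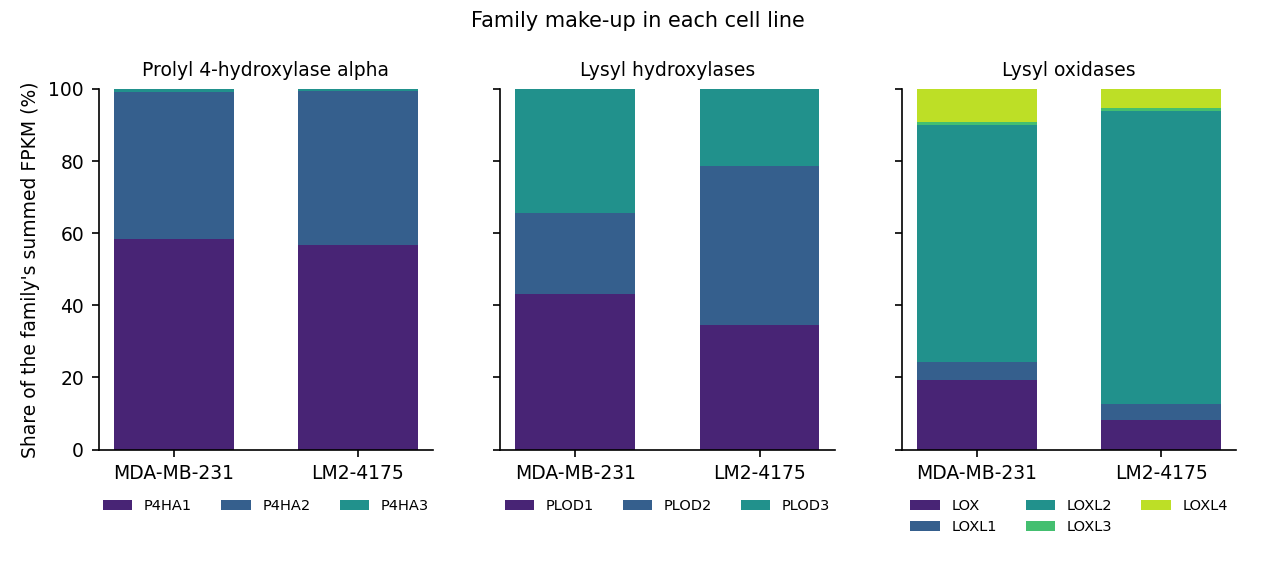
Shares of the summed FPKM of a family, in percent, as stacked bars for each cell line. PLOD2 goes from 22.5% to 44.0% of the lysyl hydroxylases and LOX from 19.4% to 8.32% of the lysyl oxidases, while P4HA1 holds 58.5% and 56.7% of the prolyl 4-hydroxylase alpha subunits. For each of these shares, the ranges that the bounds allow overlap between the cell lines.

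Of the lysyl oxidases, LOX was lower in LM2-4175 and LOXL2 was the most abundant of the 10 genes in both lines. LOX (ENSG00000113083, chromosome 5, 121398890 to 121414108, minus strand), which encodes the founding enzyme of the family, fell from 41.7 FPKM (bounds 28.2 to 55.2) in MDA-MB-231 down to 18.4 FPKM (bounds 11.6 to 25.2) in LM2-4175. The FPKM ratio was 0.443 (0.211 to 0.897 within the bounds) and the log2 ratio -1.13, and LOX was the gene of the 9 with the lowest ratio. It was called lower under each of the 9 alternatives tried, though its bounds were 2.91 FPKM apart. LOXL2 (chromosome 8, 23154410 to 23282841, minus strand) encodes a related oxidase that also acts on collagen IV of basement membranes. Its level was 141 FPKM (101.7 to 181) in MDA-MB-231 against 180.3 FPKM (126.7 to 233.9) in LM2-4175. With overlapping bounds and a log2 ratio of 0.35, it was not called. The FPKM of LOXL2 was 3.39 times that of LOX in MDA-MB-231 (1.84 to 6.43) and 9.78 times in LM2-4175 (5.02 to 20.1), and these ranges overlap. Of the family's summed FPKM, LOXL2 held 65.8% in MDA-MB-231 (50.3% to 79.3% within the bounds) against 81.3% in LM2-4175 (67.9% to 90.7%). LOX held 19.4% (11.1% to 31.4%) and 8.32% (4.16% to 15.4%). For both genes the ranges of the cell lines overlap.

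Of the other lysyl oxidases, LOXL4 was called lower, going from 19.4 FPKM (14.9 to 24.0) in MDA-MB-231 down to 11.5 FPKM (8.68 to 14.4), at a log2 ratio of -0.71. LOXL1 (10.4 and 9.56 FPKM) and LOXL3 (1.92 and 1.98 FPKM) were not called. The call of LOXL4 is 33.3% of these other lysyl oxidases, against 9.27% of all genes. Exons of genes on the opposite strand share 2.47% of the exon bases of LOX, 1.80% of those of PLOD3, 5.41% of those of P4HA2 and 1.52% of those of P4HA1. Exons of LOXL2-AS1 and ENTPD4 share 4.98% of those of LOXL2. The sources do not state whether strand was used in counting, so reads in these stretches cannot be assigned to a gene.

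P4HA1, PLOD2 and LOX are among the known targets of the hypoxia-inducible factors, whose binding sites hold the core ACGTG or GCGTG. Which of the other genes are targets was not examined, so the core is not shown to set targets apart. Only the form ACGTG was searched for. SERPINH1 is a known heat shock gene. The promoters of these 4 genes are shown to set this background beside their different values in the cell lines. Each is the 250 bases before the most upstream start in RefSeq (GRCh38.p14), printed 5' to 3' on the strand of the gene, with ACGTG on either strand and the heat shock pair TTCNNGAA in capitals. They lie at chr10:73096867-73097116 (P4HA1, minus), chr3:146161185-146161434 (PLOD2, minus), chr5:122078260-122078509 (LOX, minus) and chr11:75562003-75562252 (SERPINH1, plus).
P4HA1: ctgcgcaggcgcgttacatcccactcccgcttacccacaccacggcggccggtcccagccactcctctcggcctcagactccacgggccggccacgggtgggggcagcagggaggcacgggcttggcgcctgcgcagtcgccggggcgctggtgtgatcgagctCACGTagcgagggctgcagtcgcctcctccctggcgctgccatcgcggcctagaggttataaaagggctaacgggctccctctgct
PLOD2: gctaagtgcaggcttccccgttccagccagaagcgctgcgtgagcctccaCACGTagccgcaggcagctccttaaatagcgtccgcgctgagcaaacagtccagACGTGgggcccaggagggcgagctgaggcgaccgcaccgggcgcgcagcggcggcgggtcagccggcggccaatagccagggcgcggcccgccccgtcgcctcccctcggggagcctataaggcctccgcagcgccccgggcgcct
LOX: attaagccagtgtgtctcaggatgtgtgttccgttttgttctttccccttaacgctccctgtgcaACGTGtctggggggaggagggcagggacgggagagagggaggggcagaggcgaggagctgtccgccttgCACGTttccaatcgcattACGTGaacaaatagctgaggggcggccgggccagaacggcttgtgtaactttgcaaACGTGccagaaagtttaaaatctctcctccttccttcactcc
SERPINH1: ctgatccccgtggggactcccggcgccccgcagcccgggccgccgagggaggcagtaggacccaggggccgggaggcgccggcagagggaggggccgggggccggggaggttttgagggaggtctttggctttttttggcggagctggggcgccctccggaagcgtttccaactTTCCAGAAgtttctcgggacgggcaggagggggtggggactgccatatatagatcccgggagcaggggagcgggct

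The ACGTG core was found 4 times before LOX, 2 times before PLOD2 and 1 time before P4HA1, and it is present in 18.6% of the 27305 promoters of the same length. The 4 cores of LOX begin 185, 116, 98 and 42 bases before its start. The heat shock pair was found 76 bases before the start of SERPINH1 and is present in 6.72% of all promoters. The 2 motifs do not overlap each other in these windows. Neither set of letters was found in the windows of P4HA2, PLOD1 and PLOD3, and FKBP10, P4HA3 and LOXL2 had no entry. Because GCGTG was not searched for, a window without ACGTG is not shown to lack a hypoxia core. The letters GCGTG do occur in the window of PLOD1 and, unmarked, in that of PLOD2. Their share over all promoters was not counted. The 3 genes with ACGTG had log2 ratios of different sign, -1.13 (LOX), -0.27 (P4HA1) and 0.66 (PLOD2). Of 25 other hypoxia-induced genes or hypoxia factors, 2 were called higher (VEGFA and ADM), 1 was called lower (SLC2A1) and 22 were not called, with a median log2 ratio of -0.05. These calls are 12.0% of the list, near the 9.27% of all genes. VEGFA, the main angiogenic growth factor, rose from 37.1 to 242.8 FPKM, and SLC2A1, a glucose transporter, fell from 181 to 95.5 FPKM.

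The gene nearest to FKBP10, P3H4, also rose. P3H4 (named LEPREL4 in the table) encodes a protein related to the prolyl 3-hydroxylases without their activity, which is found in a complex with the PLOD1 enzyme. It lies head to head with FKBP10 on the minus strand of chromosome 17 (39958199 to 39968856), and the gene ends are 75 bases apart. Its level rose from 4.37 FPKM (bounds 1.64 to 7.11) in MDA-MB-231 up to 17.1 FPKM (bounds 11.4 to 22.8), at a log2 ratio of 1.75. The next genes on either side, JUP and NT5C3B, had log2 ratios of -0.20 each and were not called. Of 39 other protein-coding genes examined whose start lies within 1 Mb of the start of FKBP10, 20 were higher and 19 lower in LM2-4175, 5 were called higher (P3H4 among them) and 2 lower, and the median log2 ratio was 0.02. The calls are 17.9% of these neighbours, against 9.27% of all genes. Whether the short stretch between their starts has a part in the values of FKBP10 and P3H4 was not tested.

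**Figure D4:**
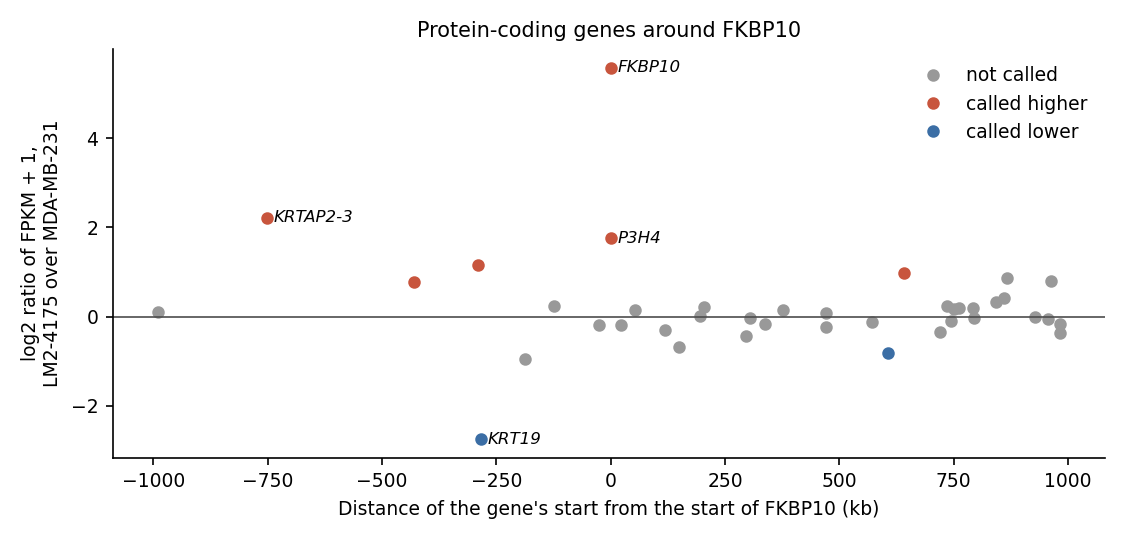
Log2 ratio of FPKM + 1 (LM2-4175 over MDA-MB-231) of FKBP10 and 39 protein-coding genes within 1 Mb, by distance of their starts from that of FKBP10 in kb, coloured by call. FKBP10 (5.58) and P3H4 (1.75) stand together at distance 0, while the next genes on both sides lie near 0.

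Around other genes of the 10, called or not, the neighbours did not all follow the same direction. Within 1 Mb of PLOD3, 21 of 25 protein-coding genes were lower in LM2-4175, with a median log2 ratio of -0.37, against -0.04 for all genes. Only 1 of them was called (lower), which is 4%, against 9.27% of all genes. PLOD3 (-0.97) had the same sign as most of these neighbours. The same held for PLOD1 (-0.61), with 15 of 19 neighbours lower and a median of -0.36. SERPINH1 and LOX were lower although 10 of 13 and 4 of 5 neighbours were higher, with medians of 0.30 and 0.13. P4HA1 (-0.27) lay among 22 higher genes of 24, with a median of 0.31. PLOD2 had only 2 such neighbours, both lower. Calls made up 23.1% of the neighbours of SERPINH1 and 15.8% of those of PLOD1, against 9.27% of all genes. They made up 0% of those of LOX, P4HA1 and PLOD2. What part the surroundings have in these ratios was not tested.

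Among 6 genes of prolyl 3-hydroxylation, whose enzymes modify single prolines of the helix, 2 were called higher and 1 lower, against 9.27% called of all genes. P3H1 fell from 48.6 FPKM (36.6 to 60.6) to 27.1 FPKM (20.1 to 34.1), and P3H2 rose from 26.8 FPKM (20.4 to 33.1) to 51.6 FPKM (38.6 to 64.7). P3H4 was the other higher gene, and CRTAP and PPIB, which form a complex with P3H1, had log2 ratios of -0.33 and -0.02 and were not called. COLGALT1 and COLGALT2, which attach galactose to hydroxylysine, had ratios of -0.30 and -0.23 and were not called.

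Of 9 genes of procollagen processing, 4 did not reach a mean of 0.5 FPKM, 1 was called higher and 1 lower. That is 40% of the 5 examined, against 9.27% of all genes. BMP1, the procollagen C-proteinase that also activates the LOX precursor, fell from 18.4 FPKM (13.2 to 23.7) to 7.52 FPKM (5.13 to 9.90), and its log2 ratio was -1.19 beside -1.13 for LOX. ADAMTS3, a procollagen N-proteinase, rose from 0.239 to 1.18 FPKM, and was not examined when a mean of at least 1 FPKM was asked for. ADAMTS3 passed the filter on the mean only through its value in LM2-4175, so nothing is read from the 40%. A list of 15 genes held other FKBP genes, folding proteins of the endoplasmic reticulum and SPARC, a secreted matrix protein that binds collagen. Of these, 11 had less FPKM in LM2-4175 and none of the 11 was called. SPARC was the 1 gene called, from 13.6 FPKM (7.69 to 19.6) to 231.7 FPKM (150.4 to 313). This single call is 6.67% of the list, against 9.27% of all genes. FKBP9 (-0.97) and FKBP14 (0.77), relatives of FKBP10, had overlapping bounds.

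Of 14 entries examined for procollagen export, 13 were not called. The single call is 7.14% of them, near the 9.27% of all genes. The exception was CREB3L1, a transcription factor for secretory and collagen genes in bone, which fell from 58.8 FPKM (43.5 to 74.1) to 22.4 FPKM (16.8 to 28.0), at a log2 ratio of -1.35. The collagen chains themselves moved in both directions. Of 14 chains examined, COL1A1, COL6A1, COL6A2 and COL13A1 were called higher and COL1A2, COL4A2, COL5A1, COL6A3, COL12A1 and COL18A1 lower. These calls are 71.4% of the chains examined, against 9.27% of all genes. COL1A1 rose from 3.16 to 31.0 FPKM while COL1A2, its partner in type I collagen, fell from 2.76 to 0.113 FPKM. COL1A2 passed the filter on the mean only through its value in MDA-MB-231. Over the 9 lists of genes outside the 10, 86 genes were examined, 10 called higher and 11 lower, which is 24.4% against 9.27% of all genes. The lists were chosen with these values known, and 10 of the 21 calls are collagen chains.

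**Figure D5:**
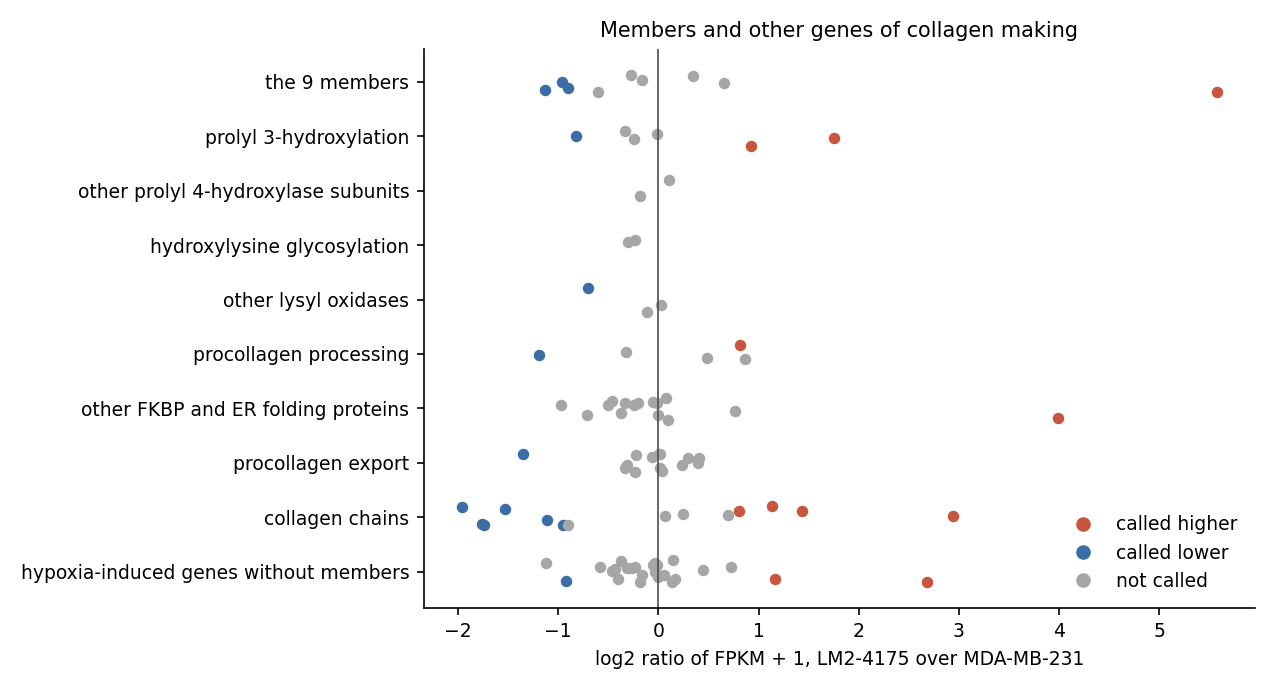
Log2 ratio of FPKM + 1 (LM2-4175 over MDA-MB-231) of the 9 genes examined and of 9 further lists, with 1 point per gene, coloured by call and spread vertically within a row for legibility. FKBP10 (5.58) is the rightmost point, SPARC (3.99) follows, and the collagen chains spread to both sides of 0.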

How the data were processed

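Gene expression of MDA-MB-231 and LM2-4175 was measured by RNA-Seq in 2 libraries per cell line. The authors mapped the reads to hg19 with TopHat 2.0, quantified GENCODE genes with Cufflinks and compared the lines with Cuffdiff, and deposited 1 FPKM with 2 bounds per gene and line. Library scaling and the meaning of the bounds are not given in the sources used here. Ratios of FPKM were computed as log2 with a pseudocount of 1 in Python 3.11.15 (NumPy 2.4.6, pandas 2.3.3, Matplotlib 3.10.9), for genes with a status of OK and a mean of at least 0.5 FPKM. A call needed 1.5-fold on FPKM + 1 and bounds that did not overlap. The study used the same fold with a threshold on the q value of Cuffdiff. That q value cannot be recomputed from FPKM, so the calls are not those of the study. Ranges of ratios and shares combine the lower bound of a value with the upper bound of the other. Only the rule for calls was run on simulated data, with known folds and noise set from the bounds. Ranges, shares, neighbours, exon overlaps and motifs were not simulated. Positions and exon overlaps are from GENCODE 44 on GRCh37, matched by Ensembl ID, and 7 of 10 promoters were found in the RefSeq table. Genes and lists were chosen with earlier results of these data known; family shares, neighbours and motifs were added after the values were seen. Named are the 10 genes, called genes of the lists, and of each list at most the 3 largest ratios not called; ESR1, PGR and the neighbours of FKBP10 were named after their values were seen.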

Additional observations from a re-analysis of the deposited data

How the results depend on the processing

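Alternatives were the pseudocount, the filter on low values, the scaling, a fold of 2, the bounds alone and the fold alone. The number of the 9 genes called was 4, and it fell to 2 (FKBP10 and LOX) with a fold of 2, to 3 with either scaling, where PLOD3 was lost, and rose to 6 with the fold alone, which added PLOD1 and PLOD2. No ratio of the 10 genes turned its direction. Over all genes, 1290 were called, 853 with a fold of 2 and 3074 with the fold alone. Scaling to the same FPKM sum gave 735 higher and 547 lower genes, against 649 and 641. The median log2 ratio of the genes lay between -0.28 and -0.19 in these alternatives. No paired analysis was possible because the table has 1 value per cell line and none per library, and for the same reason no replicate could be left out.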
